A study of Mus musculus with 6 samples.

Results

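RANK, the receptor for the cytokine RANKL, was followed with the adaptors, kinase complex and nuclear factors that act after it in 2 sorted mouse bone marrow progenitor populations. The 10 genes were fixed by symbol: Tnfrsf11a (RANK), the adaptor genes Traf2, Traf3 and Traf6, Map3k7 and Tab2 of the TAK1 complex, Nfatc1, and the regulators Prdm1, Bcl6 and Jdp2. All 10 had a row among the 22271 genes counted, and 9 passed the filter on low counts that left 12850 genes for testing. Prdm1 did not pass it. The data are read counts per gene from total RNA of cells sorted from the marrow of C57BL/6JRj mice: 3 libraries of CD27 high MODP and 3 of CD27 low MOP, with no treatment named. The sample titles carry WT in both groups; the sources used here do not give age, sex or the number of animals per library. The series' title places a progenitor of macrophages and osteoclasts downstream of one that also gives dendritic cells, and its design text compares both populations. The labels do not spell out either abbreviation.

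RANKL binding clusters RANK on the precursor surface, and the receptor's cytoplasmic tail recruits TRAF adaptors. TRAF6 passes the signal to the kinase TAK1 (Map3k7) with its partner TAB2, which feeds the NF-kB and MAP kinase arms, whereas TRAF3 together with TRAF2 holds back the alternative NF-kB arm by marking the kinase NIK for breakdown. These arms and calcium signalling raise NFATc1, the factor that drives osteoclast genes. BCL6 represses NFATc1 target genes, BLIMP1 (Prdm1) represses Bcl6 and other anti-osteoclast factors, and JDP2 is an AP-1 family protein needed for normal osteoclast formation.

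Library totals ran from 10701425 to 15892640 counts, and 1 read was worth 0.0640 to 0.0941 CPM (counts per 1000000 with library sizes scaled by edgeR's TMM factors). The sort marker Cd27 had a mean of 37.6 ± 1.99 CPM in the 3 MODP and 3.91 ± 0.571 CPM in the 3 MOP libraries (SD, n = 3), in the direction of the labels. Marker lists of other cells also differed. Their counts of called genes stand beside 16.3% higher in MOP and 14.9% lower over all tested genes. Summed basophil and mast cell markers ranged over 374 to 968 CPM in MODP libraries and 3170.3 to 5056 CPM in MOP libraries, with 6 of 6 genes higher in MOP by the test described next. Erythroid and megakaryocyte markers summed to 94.0 to 250.2 against 289 to 342 CPM (3 of 6 higher, 0 lower). Within that list Itga2b went from a mean of 51.9 to 172 CPM, and the globin genes Hba-a1 and Hbb-bt overlapped between the groups. Pf4 was lower in every MOP library but was not called. Conventional dendritic cell markers summed to 22.0 to 41.6 against 48.8 to 64.3 CPM (2 of 5 higher, 0 lower). T and NK cell markers summed to 13.6 to 42.5 against 2.21 to 5.44 CPM (4 of 6 lower, 0 higher), and plasmacytoid dendritic cell markers to 147 to 172 against 106 to 119 CPM (4 of 5 lower, 0 higher). Monocyte markers were higher in MOP for 5 of 6 genes (2028 to 2459.6 against 3551 to 4118 CPM), and all 7 myeloid progenitor markers were lower. Neutrophil markers did not separate the groups (0 of 6 called) but were highest in replicate 2 of each, with 15552 (MODP) and 10722 CPM (MOP) against 2009.7 to 4506 CPM in the other 4 libraries. The stromal and endothelial sum was also highest in replicate 2 of MODP, at 1862 CPM against 166 to 361 CPM elsewhere (0 of 4 tested genes called). Col1a1 alone gave 1727 CPM of that sum. None of the list's other genes was highest in that library. Of 8 B and plasma cell markers 0 were called, and of 6 osteoclast markers 1 could be tested, Acp5, which was higher. Calcr, also on the osteoclast list, was not matched to a row. All 22271 rows held reads in some library, so a gene without any read could not appear among them. The summed basophil, erythroid, conventional dendritic and monocyte lists moved in the direction of Tnfrsf11a, Map3k7 and Tab2 below. The summed T, NK, plasmacytoid and progenitor lists moved in that of Traf3. The part of all these lists in those results was not tested. In bulk RNA, fewer cells of a type and less RNA per cell cannot be told apart.

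The receptor and both TAK1 complex genes were higher in MOP, the restraining adaptor Traf3 was lower, and the adaptors Traf2 and Traf6 and the effector Nfatc1 did not pass the test. Of 9 tested members, MOP was higher for 3 and lower for 1, and 5 did not pass (quasi-likelihood test of edgeR, p adjusted after Benjamini and Hochberg over all tested genes, threshold 0.05). Over all 12850 genes 31.2% were called (16.3% higher and 14.9% lower), so a call is common in this comparison. The groups did not overlap for the same 4 members, against 47.6% of all tested genes. The median log2 fold change (MOP against MODP) was 0.15 over the members and -0.01 over all tested genes, and the median size regardless of sign was 0.23 for both. Without MOP replicate 1 none of the 9 members passed edgeR's test. Only Tab2 remained higher without MODP replicate 1, MODP replicate 3 or MOP replicate 2, and 5 members were higher without MODP replicate 2.

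**Figure D1:**
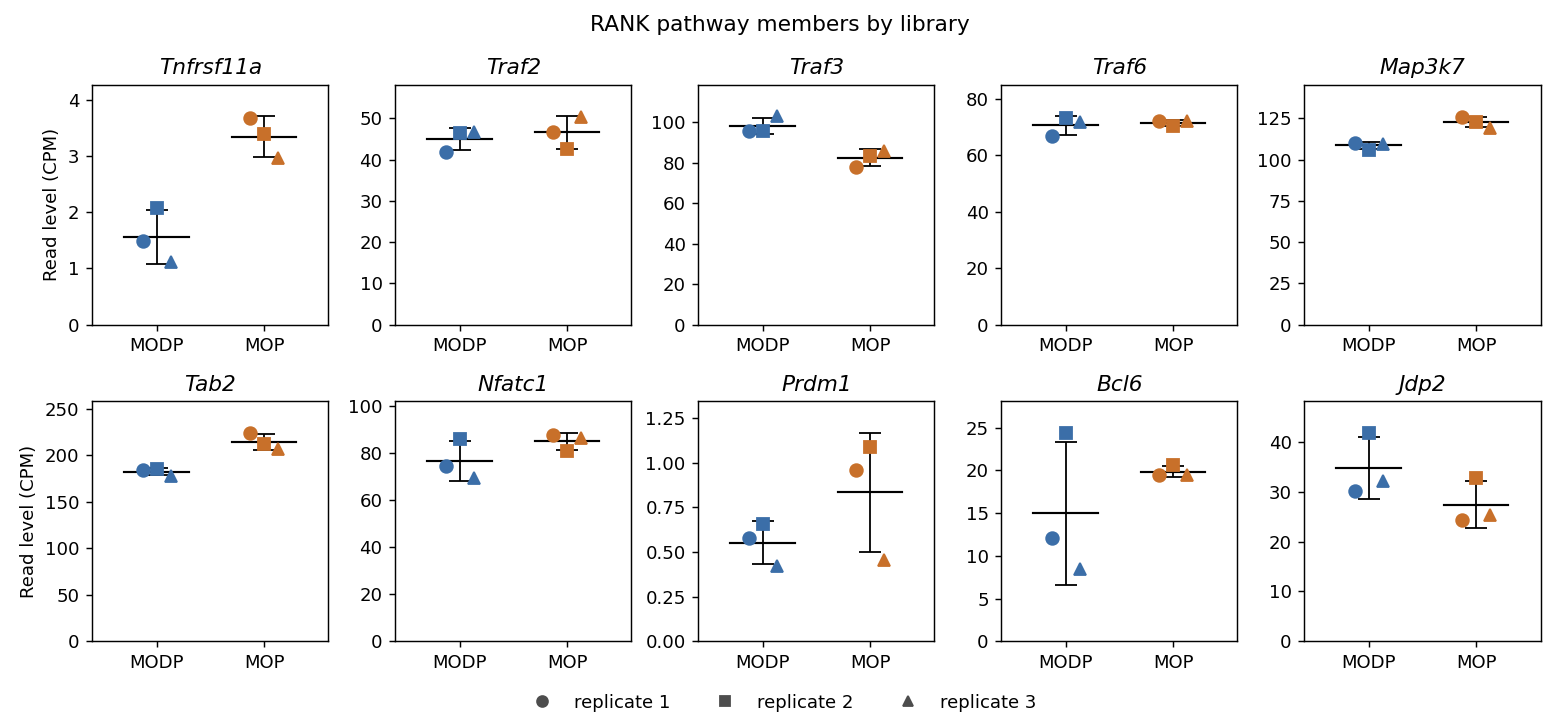
Read level in CPM of each of the 10 members (vertical axes, linear from 0) in the 3 MODP and 3 MOP libraries; symbols mark the replicate, horizontal lines the group mean and bars 1 SD. The groups are apart for Tnfrsf11a, Traf3, Map3k7 and Tab2, and Bcl6 in MODP spans 8.43 to 24.4 CPM while MOP holds 19.4 to 20.6 CPM.

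Tnfrsf11a (ENSMUSG00000026321), which encodes RANK itself, had the largest change of the 9 tested members and one of the lowest levels. MODP replicates 1, 2 and 3 held 18, 22 and 16 reads, or 1.48, 2.07 and 1.12 CPM. MOP replicates 1, 2 and 3 held 50, 53 and 39 reads, or 3.68, 3.39 and 2.96 CPM. Every MOP library was above every MODP library. The log2 fold change was 1.12 (95% confidence interval 0.47 to 1.76), or 2.17-fold, with an edgeR adjusted p of 0.018. Counting so few reads alone gives an SD of about 0.357 CPM in MODP and 0.487 CPM in MOP, against observed SDs of 0.477 and 0.364 CPM, so the spread between libraries was close to counting error. The call was lost without MODP replicate 1 or 3 or MOP replicate 1 or 2 (adjusted p 0.0066 to 0.073 in edgeR over the 6 fits that leave out a library), while the log2 fold change stayed between 0.92 and 1.36 in all 15 alternatives.

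The 250 bases before the RefSeq start of Tnfrsf11a (GRCm38.p6, chr1:105780473-105780722, plus strand) are shown because the receptor gene changed most; capitals mark CpG dinucleotides.

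Tnfrsf11a: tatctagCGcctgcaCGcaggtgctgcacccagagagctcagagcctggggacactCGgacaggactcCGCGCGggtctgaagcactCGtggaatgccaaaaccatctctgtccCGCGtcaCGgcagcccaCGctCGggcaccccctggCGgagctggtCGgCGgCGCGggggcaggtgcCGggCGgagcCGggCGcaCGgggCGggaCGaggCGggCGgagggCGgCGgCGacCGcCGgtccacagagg

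This window held 31 CpG dinucleotides and 73.6% G and C, against medians of 6 and 52.4% over 32841 such windows. Other members were alike: Traf3 held 49 and 85.2%, and the first Tab2 window 33 and 76.8%. The remaining member windows held 2 to 29 CpG and 39.6% to 72.4% G and C. Only the second Tab2 window was below the medians. RefSeq windows were used for 9 of the members, 13 windows in all, since Tab2 and Bcl6 have 2 starts and Jdp2 has 3. Nfatc1 was left out of this search. No match to TGANTCA (the AP-1 motif), GAGGAA (PU.1), GGAAA (NFAT) or TTCNNNGAA (BCL6) on either strand lay in the Tnfrsf11a window. GAGGAA and GGAAA can overlap by the letters GGAA. These letters occur in 6.75%, 23.3%, 55.6% and 7.02% of all windows, in that order. By window, the unit of these shares, TGANTCA was in 1 of 13, GAGGAA in 7, GGAAA in 5 and TTCNNNGAA in 2. By gene, with a match in any window of the gene, TGANTCA was found for 1 of 9 (Prdm1), GAGGAA for 7 and GGAAA for 4. TTCNNNGAA was found for Bcl6 alone among these 9 genes.

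Of the adaptors, Traf3 (ENSMUSG00000021277), whose product restrains the alternative NF-kB arm, was lower in MOP. MODP replicates 1, 2 and 3 held 95.8, 95.8 and 103 CPM, and the MOP libraries 77.8, 83.5 and 85.9 CPM. The groups did not overlap. Its log2 fold change was -0.25 (95% confidence interval -0.39 to -0.11), with an edgeR adjusted p of 0.016. It lost its call without MODP replicate 3 or without MOP replicate 1 (edgeR adjusted p = 0.059 and 0.077).

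Traf6 (ENSMUSG00000027164), the adaptor that links RANK to TAK1, gave 66.9, 73.2 and 71.7 CPM in the MODP libraries, against 72.2, 70.4 and 72.1 CPM for MOP. The groups overlapped, and the log2 fold change was 0.02 with a 95% confidence interval of -0.12 to 0.16 (edgeR adjusted p = 0.84). Traf2 (ENSMUSG00000026942), the partner of TRAF3, gave 41.9, 46.4 and 46.8 CPM in the MODP libraries, against 46.8, 42.6 and 50.4 CPM for MOP. It also overlapped, with a log2 fold change of 0.05 and an interval of -0.14 to 0.24 (edgeR adjusted p = 0.70). The sign of both estimates turned under upper-quartile scaling and without MODP replicate 1, and for Traf2 also without MOP replicate 3.

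Both genes of the TAK1 complex were slightly higher in MOP. Tab2 (ENSMUSG00000015755), which tethers TAK1 to ubiquitin chains, had 184, 185 and 178 CPM in the MODP libraries and 224, 212 and 207 CPM in those of MOP. All MOP libraries were above all MODP libraries, and the log2 fold change was 0.23 (95% confidence interval 0.12 to 0.35, edgeR adjusted p = 0.011). Map3k7 (ENSMUSG00000028284), the kinase TAK1 itself, had 110.2, 106 and 109.7 CPM in the MODP libraries and 126, 123 and 119.5 CPM in those of MOP. Its groups were apart as well, with a log2 fold change of 0.18 (95% confidence interval 0.07 to 0.29, edgeR adjusted p = 0.026). The call for Map3k7 was lost in 8 of 15 alternatives, namely without any 1 of MODP replicate 1, MODP replicate 3 or the 3 MOP libraries, without replicate 2 of both groups, without a filter on low counts and under upper-quartile scaling (edgeR adjusted p up to 0.12). Tab2 lost it without MOP replicate 1 (edgeR adjusted p = 0.054).

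Nfatc1 (ENSMUSG00000033016), the transcription factor at the end of this pathway, had overlapping levels in both populations. It gave 74.7, 86.2 and 69.6 CPM in the MODP libraries and 87.6, 80.8 and 86.5 CPM in those of MOP. MODP replicate 2 lay among the MOP values, and MODP replicates 1 and 3 lay below them. The log2 fold change was 0.15 with a 95% confidence interval of -0.05 to 0.34 (edgeR adjusted p = 0.22). Without MODP replicate 2 the log2 fold change was 0.24 and passed the test (edgeR adjusted p = 0.024), and without replicate 2 of both groups it was 0.27 (edgeR adjusted p = 0.021).

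**Figure D2:**
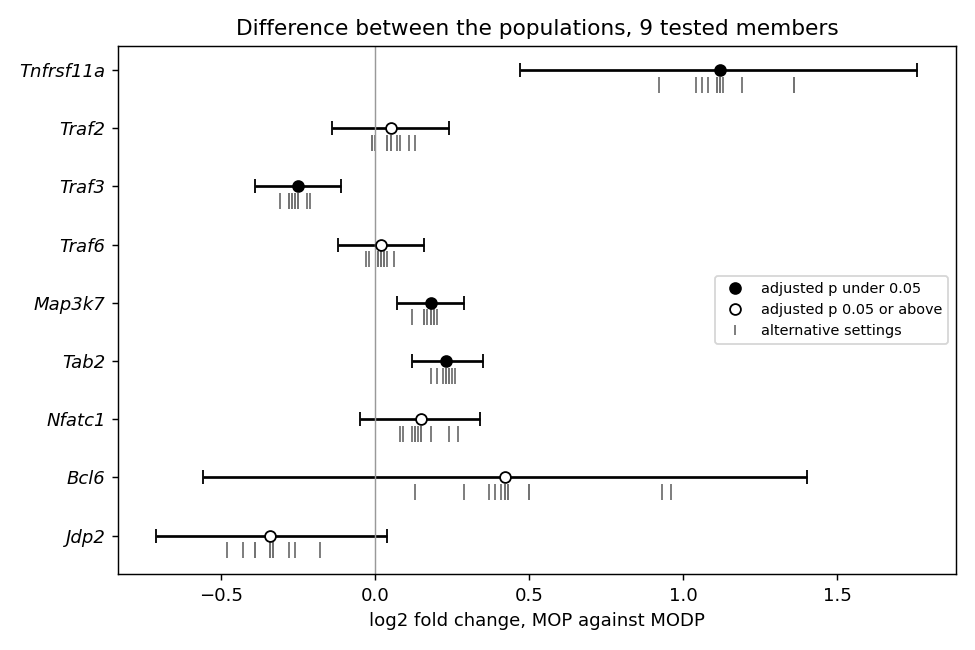
Log2 fold change of MOP against MODP for the 9 tested members (circles; bars are 95% confidence intervals from the edgeR fit; filled where the adjusted p is under 0.05), with the estimates of 15 alternative settings as ticks below each. Tnfrsf11a lies at 1.12 and Traf2 and Traf6 lie nearest 0; the ticks for Bcl6 run from 0.13 to 0.96.

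Among the nuclear regulators, Bcl6 (ENSMUSG00000022508), which encodes a repressor of NFATc1 target genes, differed more within MODP than between the groups. MODP replicates 1, 2 and 3 stood at 12.1, 24.4 and 8.43 CPM, from 147, 259 and 120 reads. MOP replicates 1, 2 and 3 stood at 19.4, 20.6 and 19.5 CPM. MODP replicate 2 was the highest of the 6 libraries, and MODP replicates 1 and 3 were the lowest. The SD in MODP was 8.34 CPM, where counting alone gives about 1.09 CPM, and the SD in MOP was 0.690 CPM. Over all libraries the log2 fold change was 0.42 with a 95% confidence interval of -0.56 to 1.4, and it did not pass (edgeR adjusted p = 0.47). Without MODP replicate 2 it was 0.96 and passed (edgeR adjusted p = 0.0019), and without replicate 2 of both groups it was 0.93 (edgeR adjusted p = 0.0061).

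Summed neutrophil markers (6 genes, none called) came to 3307, 15552 and 2009.7 CPM in the MODP libraries, the same order as Bcl6. In MOP they were 2498, 10722 and 4506 CPM, while Bcl6 kept to 19.4 to 20.6 CPM. Their part in the Bcl6 values was not tested.

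**Figure D3:**
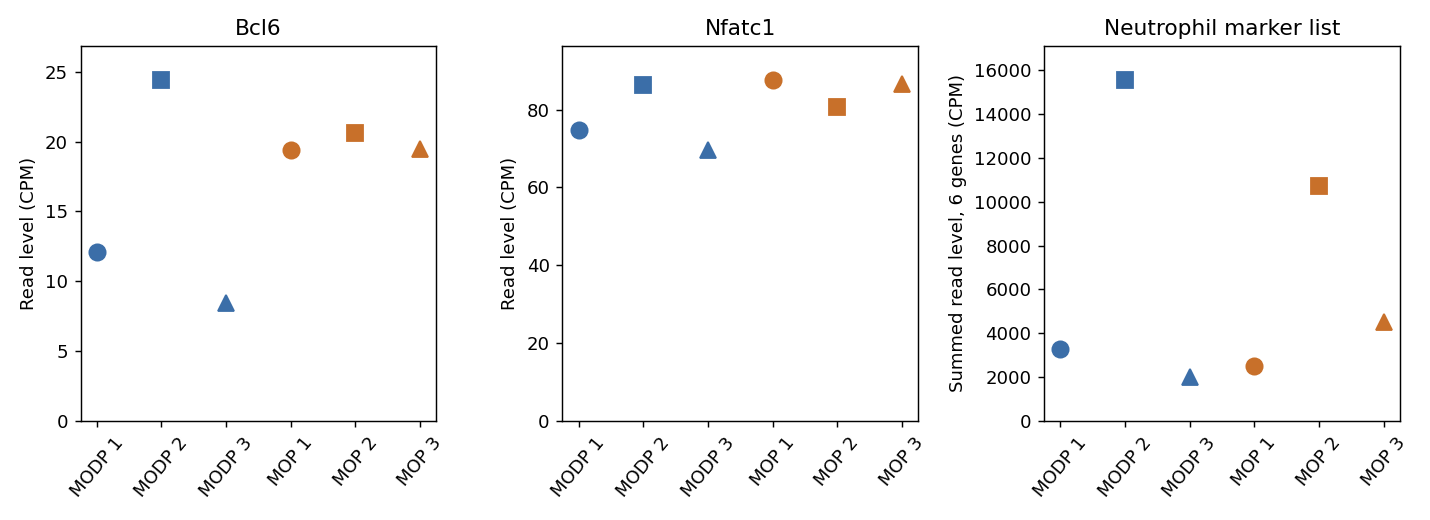
Read level (CPM, linear from 0) of Bcl6, of Nfatc1 and of the summed 6 neutrophil markers in each library; MODP in blue, MOP in orange. MODP replicate 2 is the highest library for Bcl6 (24.4 CPM) and for the marker sum (15552 CPM), and MOP replicate 2, at 10722 CPM of markers, has 20.6 CPM of Bcl6.

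Both RefSeq starts of Bcl6 are shown with matches to TTCNNNGAA, the motif that BCL6 and STAT proteins can bind, in capitals (250 bases before each start, GRCm38.p6, minus strand). The first is chr16:23988853-23989102 and the second chr16:23981284-23981533.

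Bcl6 first start: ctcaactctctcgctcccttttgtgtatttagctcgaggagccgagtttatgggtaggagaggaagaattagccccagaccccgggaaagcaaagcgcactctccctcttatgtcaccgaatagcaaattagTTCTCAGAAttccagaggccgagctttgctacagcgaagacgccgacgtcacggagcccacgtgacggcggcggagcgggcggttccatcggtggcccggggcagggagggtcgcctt

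Bcl6 second start: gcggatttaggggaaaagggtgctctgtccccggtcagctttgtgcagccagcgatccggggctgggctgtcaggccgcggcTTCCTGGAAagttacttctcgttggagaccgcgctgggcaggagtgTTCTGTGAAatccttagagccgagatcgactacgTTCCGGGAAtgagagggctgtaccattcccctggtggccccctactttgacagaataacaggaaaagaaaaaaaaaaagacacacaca

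The first window held 1 match and the second 3, and 7.02% of all windows held any. A match is a string of letters, and these data hold no measurement of binding.

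Jdp2 (ENSMUSG00000034271) was lower in MOP within every replicate number, although the groups overlapped. MODP replicates 1, 2 and 3 held 30.1, 41.9 and 32.3 CPM, and the MOP libraries 24.3, 32.8 and 25.3 CPM. Replicate 2 was the highest library of each group. The log2 fold change was -0.34 with a 95% confidence interval of -0.71 to 0.04, and the gene was not called (edgeR adjusted p = 0.15). Blocked by the columns' replicate number it passed (edgeR adjusted p = 0.0056, and 0.0075 with the titles' number), as it did without replicate 2 of both groups (edgeR adjusted p = 0.032). Of its exon bases, 7.68% overlap Gm47863 on the other strand in GENCODE M21, and the sources used here do not give the strand setting of the counting.

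Prdm1 (ENSMUSG00000038151), which encodes BLIMP1, was near the detection limit. MODP replicates 1, 2 and 3 held 7, 7 and 6 reads and MOP replicates 1, 2 and 3 held 13, 17 and 6. MOP replicate 3 lay among the MODP values at 0.455 CPM, and the other MOP libraries lay above them at 0.957 and 1.09 CPM. In the fit without a filter on low counts its log2 fold change came to 0.61 with an SE of 0.52 (edgeR adjusted p = 0.52). It passed the filter without MODP replicate 1, 2 or 3, with log2 fold changes of 0.66, 0.76 and 0.44 (edgeR adjusted p = 0.46, 0.29 and 0.61). It also did so without MOP replicate 3, where the estimate was 0.90 with an SE of 0.43 (edgeR adjusted p = 0.18). DESeq2 gave 0.62 with an SE of 0.74 (DESeq2 adjusted p = 0.63).

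Levels of different genes were compared per length, as CPM per kilobase of GENCODE M21 exons. Tab2 was the highest member in both populations, at 29.7 ± 0.607 in MODP and 35.0 ± 1.43 CPM per kilobase in MOP (SD, n = 3). Map3k7 followed at 16.9 ± 0.372 and 19.1 ± 0.525. In MODP its range overlapped that of Jdp2, at 16.2 ± 2.91, and in MOP it did not, with Jdp2 at 12.8 ± 2.18. Traf3 (13.3 and 11.2 CPM per kilobase in MODP and MOP) and Nfatc1 (10.3 and 11.4) came next; their ranges were apart in MODP and overlapped in MOP, where Jdp2 and Nfatc1 overlapped too. Traf6 (8.96 and 9.08) and Traf2 (8.83 and 9.14) overlapped in both. Bcl6 stood at 2.23 and 2.96 CPM per kilobase. Tnfrsf11a, at 0.260 ± 0.0797 and 0.559 ± 0.0609, was above 3.94% of tested genes in MODP and 10.5% in MOP, and Prdm1 was last at 0.0989 and 0.149. The receptor's level was below those of its 3 adaptors on this scale in every library.

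For each member past the threshold, the tested genes with at least 10 CPM in a group whose log2 CPM followed it most closely over the 6 libraries were listed, as a description; the libraries fall into 2 groups, so a high r mostly repeats the group difference. For Tnfrsf11a these were Fosl2 (r = 0.9996), which encodes an AP-1 factor, Crybg1 (r = 0.9987) and Dcaf6 (r = 0.9982), out of 9187 genes. For Tab2 they were Tjp3, Acap3 and Malt1, which encodes a protease of NF-kB signalling (r = 0.9968 to 0.9994). For Map3k7 they were Ciao2a, Fam78a and Atad2 (r = 0.9941 to 0.9980), and for Traf3 Asrgl1, Mrps10 and Ncbp2 (r = 0.9973 to 0.9983).

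The rest of the pathway was read from 8 lists by role, with 83 genes in all, of which Oscar is on 2 lists. Of 75 tested, MOP was higher for 24 and lower for 3, and 48 did not pass, or 36.0% called against 31.2% of all tested genes. Counts of the single lists below stand beside 16.3% higher and 14.9% lower over all tested genes. Their median log2 fold change was 0.21. The lists were chosen with earlier results of these data known, so this share and this median are descriptions only. With the replicate number of the table's columns as a block, 39 were higher and 5 lower (edgeR), where 41.0% of all tested genes were called. The sample titles give the third pair the same number as the first, and a block on the title number gave 26 higher and 5 lower, where 37.6% of all tested genes were called. Under upper-quartile scaling 17 were higher and 3 lower; Grb2, Chuk, Nfkb1, Tec, Ppp3r1, Rbpj and Sirt1, named below, were no longer called. DESeq2 did not call Grb2, Chuk, Sirt1, Hdac3 or Src (adjusted p = 0.052, 0.067, 0.053, 0.061 and 0.14), and without a filter on low counts edgeR did not call Grb2, Chuk, Id1, Acp5 or Src. The higher count was 14 without MODP replicate 1, 15 without MODP replicate 3 and 10 without MOP replicate 1, and the lower count was 1 without any 1 MOP library.

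Ligand and decoy were almost unread. Tnfsf11, which encodes RANKL, held 0 to 3 reads in each library, and Tnfrsf11b, which encodes the decoy receptor osteoprotegerin, held 0 to 3. Lgr4, a further receptor for RANKL, averaged 2.45 ± 0.653 and 2.71 ± 0.545 CPM in MODP and MOP (SD, n = 3, as for all such pairs below) and was not called (edgeR adjusted p = 0.76).

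Of 10 other adaptors and ubiquitin ligases, 4 were higher in MOP and 0 lower, with 6 not called. Gab2, a docking protein that binds RANK, rose from 70.6 ± 5.87 to 105 ± 15.6 CPM (log2 0.57, edgeR adjusted p = 0.0070). Traf5, another TRAF that binds the receptor tail, rose from 5.53 ± 0.790 to 8.83 ± 1.67 CPM (log2 0.68, edgeR adjusted p = 0.031). Birc3, a ubiquitin ligase that works with TRAF2 and TRAF3, rose from 35.5, 43.9 and 38.7 to 51.3, 54.2 and 50.1 CPM (log2 0.40, edgeR adjusted p = 0.010). Grb2, an adaptor of receptor kinases, was the fourth (log2 0.16, edgeR adjusted p = 0.043). Traf1, at 1.63 ± 0.355 and 0.781 ± 0.351 CPM, did not pass (edgeR adjusted p = 0.083) but was called lower once blocked by replicate number (edgeR adjusted p = 0.030, and 0.034 with the titles' number). The call for Grb2 was lost without any 1 library other than MODP replicate 2, and that for Traf5 without replicate 1 or 3 of either group.

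In the arm of TAK1 partners and NF-kB, 3 of 12 genes were higher and 0 lower, with 9 not called, where 31.2% of all tested genes were called. Ikbkb, the kinase of the classical arm, rose from 161 ± 6.02 to 206 ± 15.1 CPM (log2 0.35, edgeR adjusted p = 0.0049). Nfkb1, a subunit gene of the classical dimer, and Chuk, the kinase of the alternative arm, had log2 fold changes of 0.22 and 0.18 (edgeR adjusted p = 0.017 and 0.037). Map3k14, which encodes NIK, the kinase that TRAF3 restrains, overlapped between the groups, with 27.7, 26.3 and 24.2 against 28.9, 29.6 and 27.4 CPM (edgeR adjusted p = 0.25). Chuk lost its call without any 1 of the 6 libraries, and Nfkb1 without MODP replicate 3 or replicate 1 or 3 of MOP.

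Of 13 MAP kinase and AP-1 genes, 4 were higher and 0 lower, with 9 not called. Fosl2 rose from 62.6, 85.4 and 47.9 to 154, 142 and 127 CPM (log2 1.11, edgeR adjusted p = 0.016). The kinase genes Mapk3, Mapk14 and Map2k3 rose by log2 0.37, 0.26 and 0.25 (edgeR adjusted p = 0.011, 0.011 and 0.018). Fos, the AP-1 factor required for osteoclasts, was far more abundant and did not pass (edgeR adjusted p = 0.18), with 2408, 2339 and 1512 CPM for MODP and 3825, 3196 and 2324 CPM for MOP. Replicate 3 was the lowest library of each group, and each MOP library was above the MODP library of the same number. Blocked by the columns' replicate number, Fos was higher (edgeR adjusted p = 8.9e-05), and blocked by the titles' number it was not called (edgeR adjusted p = 0.25). Fosl2 lost its call without MODP replicate 1 or MOP replicate 1, Mapk14 without MOP replicate 1, and Map2k3 without MODP replicate 1 or 3 or MOP replicate 1 or 2.

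Some NF-kB feedback genes were also lowest in replicate 3 of each group. Tnfaip3, which encodes the deubiquitinase A20 and is on the list of signal inhibitors, had 406, 408 and 145 CPM in the MODP libraries and 822, 676 and 299 CPM in those of MOP (edgeR adjusted p = 0.33). With the block it was higher (edgeR adjusted p = 6.9e-05), as was Nfkbia, the NF-kB inhibitor gene, at 288, 329.5 and 189.9 CPM against 406, 391 and 246 CPM (edgeR adjusted p = 0.0010 with the block and 0.41 without). With the titles' number as the block neither was called (edgeR adjusted p = 0.37 for Tnfaip3 and 0.40 for Nfkbia). These 3 genes were chosen after their values were seen. In all, the block on the columns' number added 17 higher and 2 lower pathway genes and removed Tec and Id1 (edgeR adjusted p = 0.12 and 0.059). With the titles' number Tec was not called and Id1 was (edgeR adjusted p = 0.055 and 0.037).

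Of 13 tested genes of the calcium and co-stimulation arm, 5 were higher and 0 lower, with 8 not called. Trem2, a receptor that signals through the Tyrobp adaptor, rose from 13.3, 5.83 and 8.15 CPM to 45.0, 34.8 and 34.7 CPM (log2 2.06, edgeR adjusted p = 0.0043). The adaptor genes Tyrobp and Fcer1g rose by log2 0.97 and 1.01 (edgeR adjusted p = 0.0017 and 0.0031). Ppp3r1, a calcineurin subunit gene, had a log2 fold change of 0.19 (edgeR adjusted p = 0.034), with its call lost without any 1 library other than MODP replicate 2. The kinase gene Tec was the fifth (log2 0.50, edgeR adjusted p = 0.039) and lost its call without replicate 1 or 3 of either group. Basophils and mast cells also use Fcer1g, and their marker sum was higher in every MOP library; its part in the Fcer1g value was not tested.

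Where 31.2% of all tested genes were called, 1 of 8 signal inhibitors was higher and 0 lower, with 7 not called. The higher one was Dok3, an adaptor that dampens co-stimulatory signals, with 96.1, 117 and 88.1 against 151, 156 and 145 CPM (log2 0.59, edgeR adjusted p = 0.0042). Cyld, a deubiquitinase that limits RANK signalling, averaged 87.0 ± 6.72 and 96.2 ± 1.97 CPM and did not pass (edgeR adjusted p = 0.14).

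A list of 12 other transcription and chromatin factors, drawn up for brakes on osteoclast genes, had 4 higher, 2 lower and 6 not passed. Its lower members were chromatin enzymes: Dnmt3a, a DNA methyltransferase known to support osteoclast differentiation, fell from 116, 111 and 124 CPM to 69.0, 71.8 and 77.8 CPM (log2 -0.68, edgeR adjusted p = 0.00045), and Hdac3, a histone deacetylase, had a log2 fold change of -0.22 (edgeR adjusted p = 0.031). The higher members were Id1, Ikzf1, Sirt1 and Rbpj, with log2 fold changes of 1.48, 0.27, 0.24 and 0.23 (edgeR adjusted p = 0.041, 0.012, 0.039 and 0.041). Irf8, a brake that BLIMP1 represses, is on the monocyte list too and was not called (edgeR adjusted p = 0.088), with 871, 568 and 618 CPM for MODP and 1149.8, 879 and 955 CPM for MOP. With the block on the columns' number it was higher (edgeR adjusted p = 0.00017), as it was without MODP replicate 1, and with the titles' number it was not called (edgeR adjusted p = 0.054). Hdac3 and Id1 lost their calls without any 1 library other than MODP replicate 2, Rbpj without any other than MODP replicate 3, Sirt1 without MODP replicate 1 or 3 or MOP replicate 1 or 2, and Ikzf1 without MOP replicate 1. Between 12.7% and 26.3% of the 31-mers of Birc3, Grb2, Traf5, Ppp3r1 and Rbpj occur in other genes, so the reads of these 5 genes are less certain.

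The NFATc1 target genes of osteoclasts ranged from almost unread to abundant. Of 12 listed, 11 were matched to the table and 6 were tested; 3 of these were higher and 1 lower, with 2 not called. Dcstamp, needed for cell fusion, held 0 reads in 5 libraries and 2 in MOP replicate 2, and Ocstamp, a second fusion gene, held 0 to 2. Ctsk, the collagen-degrading protease, held 28 and 129 reads in replicate 2 of MODP and MOP and 1 to 7 in the other 4 libraries. Higher in MOP were Itgb3, an integrin chain, by log2 0.89, Clcn7, a lysosomal chloride carrier, by 0.52, and Acp5, the tartrate-resistant acid phosphatase, by 0.96 (edgeR adjusted p = 0.00069, 0.0025 and 0.042). Car2, a carbonic anhydrase, at 120.3 ± 36.8 and 269.9 ± 76.4 CPM, and Mmp9, a matrix protease, at 139 ± 148 and 219.8 ± 135 CPM, were not called (edgeR adjusted p = 0.053 and 0.67). With either block Car2 was higher (edgeR adjusted p = 0.00053 and 0.0045). Mmp9 gave 69.8, 309 and 37.2 CPM in the MODP libraries and 116, 373 and 170.5 CPM in those of MOP. Within each group its order was that of the neutrophil marker sum. The erythroid and megakaryocyte sum and the monocyte sum were higher in every MOP library. The part of such other cells in the values of this list was not tested. Src, a kinase of the resorbing cell, was lower, with 11, 18 and 21 reads in MODP and 8, 10 and 6 in MOP (edgeR adjusted p = 0.036). The Acp5 call was lost without any 1 MODP library or MOP replicate 1, and the Src call without any 1 library other than MODP replicate 1.

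**Figure D4:**
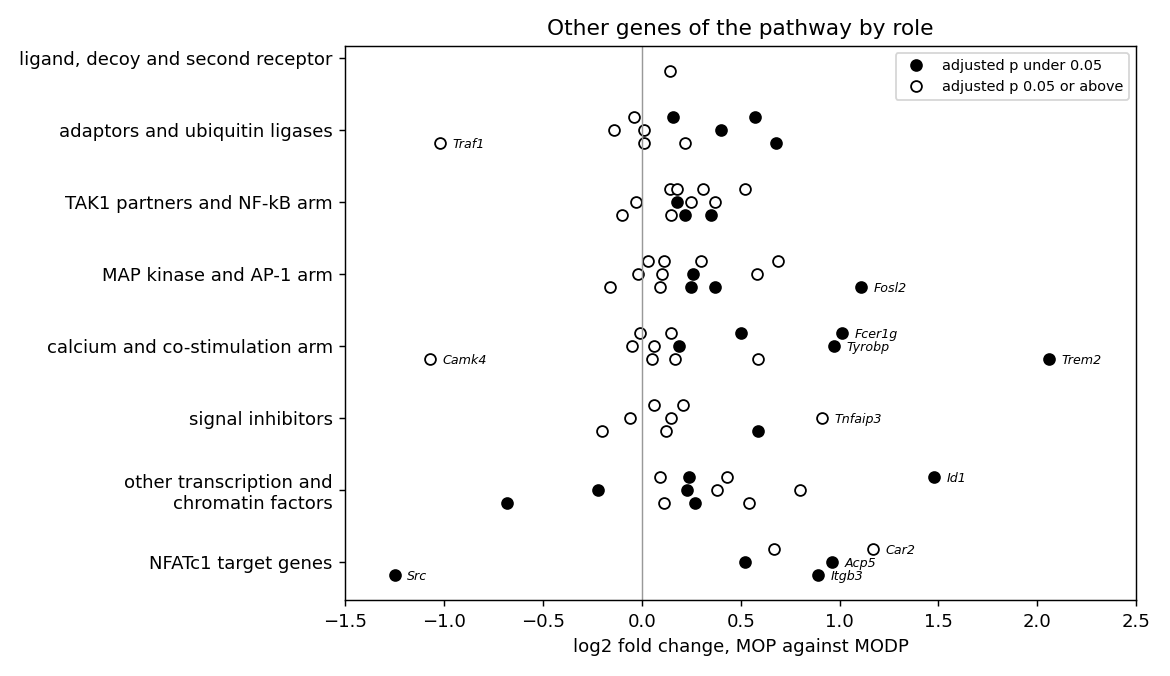
Log2 fold change of MOP against MODP (horizontal axis) for each tested gene of the 8 lists (rows); filled circles have an edgeR adjusted p under 0.05, and genes beyond 0.85 in either direction are named. Of 75 genes, 24 filled circles lie right of 0 and 3 lie left of it, and Trem2 lies farthest right at 2.06.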

How the data were processed

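Per the labels' protocols, progenitors were sorted by flow cytometry, RNA came from TriZol extraction and libraries from an Illumina TruSeq kit. The authors deposited raw counts per Ensembl gene; TopHat 1.4 and HTSeq are named in the submitters' processing notes. The genome build, annotation and strand setting were not given in the sources used here. Columns were matched to samples by leading number and P suffix, since the last pair is numbered WT3 in the table and WT1 in the titles. Symbols came from GENCODE M21, for 20840 of 22271 genes.

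Counts were tested with edgeR 4.0.16 in R 4.3.3 (filterByExpr, TMM, robust quasi-likelihood fit, group alone, Benjamini-Hochberg over all tested genes, threshold 0.05). Profiles used log2 CPM with a pseudocount of 0.5. No label ties libraries to separate animals, so the p-values reflect only the spread among 6 libraries, which could be technical. Alternatives were DESeq2 1.42.0, RLE and upper-quartile scaling, other filters, left-out libraries, blocks and, added after the data were seen, non-robust estimation. On simulated counts estimated folds matched those put in, and unchanged genes passed the p-value that is the limit here no more often than that p allows; with few changed genes, though, false calls exceeded the nominal share, and less so without robust estimation. A first limit set on that share was missed, and the check was then changed to the folds and the unchanged genes.

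Deviations from group means correlated at 0.58, 0.60 and 0.51 for same-numbered libraries of both groups (9415 genes) and at -0.46 to 0.06 for others. Deviations within a group sum to 0, so high values for same-numbered libraries go with low ones for others. Neutrophil markers were also highest in replicate 2 of both groups. No label says that same-numbered libraries come from the same animals. From the column names and these correlations the table's numbers were taken as pairs, and the block is given where it changed a call.

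The members and lists were chosen with earlier results of these data known. All members were named, and of each list up to 4 called genes with the lowest adjusted p, or the most abundant one where none was called, and genes behind a count of 5 or fewer; other names were chosen after their values were seen. Promoter windows are from RefSeq (GRCm38.p6). At most 9.52% of the 31-mers of any member's longest transcript (Map3k7) occur in other genes.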

Additional observations from a re-analysis of the deposited data

How the results depend on the processing

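Over 15 alternatives for each of the 9 tested members, 108 estimates stayed on the same side of the threshold with the same sign, 15 lost a call, 7 gained one and 5 changed sign. The sign changes were for Traf2 under upper-quartile scaling (log2 -0.01) and without MODP replicate 1 (-0.00) or MOP replicate 3 (-0.01), and for Traf6 under upper-quartile scaling (-0.03) and without MODP replicate 1 (-0.02). Over the 6 fits without a library Traf2 ran from -0.01 to 0.11 and Traf6 from -0.02 to 0.04. None of these passed in any edgeR fit. Leaving out 1 library gave 0 to 5 higher and 0 to 1 lower members, 1281 to 2524 higher and 1036 to 2275 lower genes of all tested, and 10 to 25 higher and 1 to 3 lower pathway genes. With the replicate block 2 members were lower (Traf3 and Jdp2), and the count was also 2 when blocking on the title number or leaving replicate 2 of both groups out. Pathway genes were 39 higher and 5 lower with the replicate block, 26 higher and 5 lower with the title number as the block, 1 lower with DESeq2 and 1 lower without replicate 2 of both groups. Upper-quartile scaling gave 1692 higher and 2452 lower genes against 2095 and 1913, and moved the median of all genes from -0.01 to -0.06. Non-robust estimation changed no member's call. The cause of these changes was not tested. Tnfrsf11a and Prdm1 had at most 53 and 17 reads in a library.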
